A study of Mus musculus with 9 samples.

Results

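The oogenesin and oocyte homeobox genes are mouse gene families known for transcription in oocytes. The 8 genes chosen were the oogenesins Oog1, Oog3 and Oog4 and the oocyte homeobox genes Obox1, Obox2, Obox3, Obox5 and Obox6, selected by symbol from the 52025 genes of the tables. All 8 were found. Ovaries of Kunming mice, an outbred stock, were sequenced at postnatal day (PD) 14, PD15 and PD16, the days around the initial formation of the follicular antrum, and the groups share the strain and no treatment is named. Each day was represented by 3 libraries, and the 9 libraries held 20.4 to 28.7 M mapped fragments. In the labels the tissue is ovary but the source is named as granulosa cells. The study describes the replicates as independent ovaries, and whether each came from a different mouse is not given, so p-values measure the spread between these libraries. Values are FPKM, which divide a gene's mapped fragments by its length (here the merged exons of the gene) and by the depth of the library, so levels are compared between genes per length.

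Oogenesins are leucine-rich repeat proteins of the PRAME family, and Oog1 is known as a transcript of oocytes and early embryos. Obox genes encode homeodomain proteins, which bind DNA, and maternal and embryonic Obox proteins are known to take part in the activation of the mouse embryonic genome. 

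In GENCODE M21 (GRCm38, the build of the submitters' mm10), Oog3 is at chr4:144157557-144162663 and Oog4 at chr4:143437164-143450324, both on the minus strand. Oog1 is apart from them, at chr12:87602688-87608850 on the plus strand. The Obox members are on chromosome 7. Obox2 is at chr7:15388721-15398545, Obox1 at chr7:15388948-15556866 and Obox5 at chr7:15750131-15759800 on the plus strand, and Obox3 at chr7:15479825-15639902 and Obox6 at chr7:15833241-15839678 on the minus strand. The annotated span of Obox1 covers that of Obox2, and their exons share 59 bases. The 53 Obox rows of chromosome 7, pseudogenes included, lie within 1.51 Mb.

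The bases before the RefSeq start site are compared to show how alike the members are there. RefSeq and GENCODE starts differ for some members. Of the stretches given below, those of Obox1 and Obox5 and most of that of Obox3 lie within the GENCODE gene spans. RefSeq promoter windows (GRCm38.p6, 250 bases before to 50 after the start) matched 9 of the 11 protein-coding genes of both families, all but Obox6 and Obox8. The 130 bases before the start are given 5′ to 3′ for Oog3, chr4:144162652-144162781 (minus strand), Oog4, chr4:143450325-143450454 (minus strand), Oog1, chr12:87602535-87602664 (plus strand), Obox1, chr7:15547127-15547256 (plus strand), Obox5, chr7:15750240-15750369 (plus strand), and Obox3, chr7:15639778-15639907 (minus strand). They are shown because the set holds abundant members and barely detected ones of each family. Capitals mark the runs TATATA and AGTGGGTGGAG.
Oog3: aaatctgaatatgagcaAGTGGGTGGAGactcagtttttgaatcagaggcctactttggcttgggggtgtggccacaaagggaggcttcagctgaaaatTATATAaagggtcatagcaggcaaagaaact
Oog4: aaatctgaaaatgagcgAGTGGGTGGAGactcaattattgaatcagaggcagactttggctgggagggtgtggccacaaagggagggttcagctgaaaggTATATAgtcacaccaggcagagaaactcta
Oog1: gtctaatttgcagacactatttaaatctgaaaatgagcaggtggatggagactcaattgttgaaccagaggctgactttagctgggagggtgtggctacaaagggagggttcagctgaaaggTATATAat
Obox1: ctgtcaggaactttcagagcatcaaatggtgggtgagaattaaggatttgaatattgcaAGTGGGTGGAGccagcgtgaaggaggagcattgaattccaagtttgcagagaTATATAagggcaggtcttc
Obox5: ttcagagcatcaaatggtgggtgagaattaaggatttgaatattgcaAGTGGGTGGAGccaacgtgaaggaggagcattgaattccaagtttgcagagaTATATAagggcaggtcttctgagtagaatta
Obox3: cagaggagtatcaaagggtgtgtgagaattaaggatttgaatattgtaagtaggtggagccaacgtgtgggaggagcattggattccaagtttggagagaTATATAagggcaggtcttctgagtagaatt
The run TATATA was in 8 of the 9 windows of both families, all but Obox2, and in 5.67% of all 32851 promoters of the table (both strands). The run AGTGGGTGGAG was in 6 of the 9 windows, namely Oog3, Oog4, Obox1, Obox2, Obox5 and Obox7, the longest run that these 6 share, and in 0.186% of all promoters. It began at base −71 before the start in Obox1, with TATATA at −19, but at base 27 after the start in Obox2. The Obox2 window ends 50 bases after the start, short of the place that matches TATATA in Obox1. The lack of TATATA in Obox2 thus describes its window only. The longer form GCAAGTGGGTGGAG was in 5 promoters of the table, those of Oog3, Obox1, Obox2, Obox5 and Obox7. The run TTCAGCTGAAA was in all 4 oogenesin windows (Oog1, Oog2, Oog3 and Oog4) and in 17 promoters, or 0.0517%. These runs were found in these windows, so their counts describe the windows and test nothing.

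Of the motifs listed for search, TAATTG, the core bound by homeodomain proteins such as NOBOX, was in 2 of the 9 windows (Oog3 and Oog4) and in 8% of all promoters. TAATTA was in none, against 5.29%. The E-box CANNTG was in 8 windows, against 72.3%, and its form CAGCTG, which lies within TTCAGCTGAAA, was in the 4 oogenesin windows, against 16.3%. CAGGTG was in 2, against 20.2%, and the TATA box TATAAA in 3, against 13.6%. A match is a description of letters, not of a bound site.

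Obox1 and Obox2 shared an unbroken run of 203 bases, shifted by different annotated starts. Obox1 and Obox5 were 95.5% identical over 288 aligned bases. The window of Obox3 was less alike, at 54.2% to 71.0% identity with those of Obox1, Obox2, Obox5 and Obox7. The oogenesin windows were 74.4% to 83.6% identical in pairs. Windows that are much alike belonged to genes of very different level, since Oog4 and Oog1 were 83.6% identical.

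The likeness of the transcripts bears on every level that follows. Obox1 and Obox2 transcripts were 99.2% identical over 1459 aligned bases, with an unbroken shared run of 427 bases. Of the 100-base windows of the longest coding transcript, 42.5% of Obox2 and 40.9% of Obox1 also occurred in the other. For Oog1 this share was 76.7% of the 2451-base transcript and 91.7% of the 1801-base one, with copies in C87977, Gm10436, Gm13023 and Gm2042. The share was 15.9% for Obox3, with pseudogenes, 10.8% for Oog3, with Gm4350, and 0.115% for Obox5, with Obox7. No 100-base window of Oog4 or Obox6 was shared. How the authors treated fragments that map to several places is not given in the sources used here, so the levels of Oog1, Obox1 and Obox2 are uncertain as single genes and that of Obox5 is the least exposed among the abundant members.

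**Figure D1:**
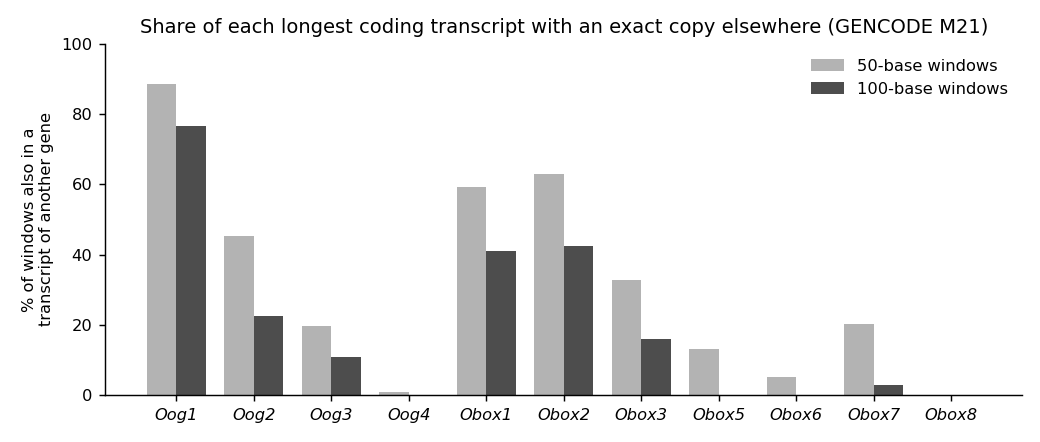
Percentage of all 50-base (light bars) and 100-base windows (dark bars) of each gene's longest coding transcript that occur unchanged in a transcript of another gene (GENCODE M21). Oog1, Obox2 and Obox1 have the highest shares of 100-base windows, at 76.7%, 42.5% and 40.9%, and Obox5 has 0.115%.

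Of the 8 members, 5 were abundant and 3 were at or near 0. Oog3 was the highest, at a mean of 35.3 FPKM over the 9 libraries. Obox2 followed at 19.0, Obox5 at 18.8, Obox1 at 16.1 and Oog1 at 11.96 FPKM. These 5 had a mean above 1 FPKM on at least 1 day and entered the tests.

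The order of the levels was compared within libraries. Oog3 was above Obox2 in 9 of 9 libraries, by 1.31 to 2.14 times. Obox2 was above Obox5 in only 4 of 9, so these neighbours did not differ beyond their spread. Obox5 was above Obox1, and Obox1 above Oog1, in 9 of 9 libraries, the former by only 1.02 to 1.32 times. The lengths behind these values were 2136 bases for Obox5 and 1900 for Obox1, where the longest coding transcripts have 1831 and 1512 bases. With the latter as the length, a choice made after the values were seen, Obox5 was above Obox1 in 7 of 9 libraries, at 0.949 to 1.22 times.

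Counting error was small against the spread of the libraries. The 5 abundant members had between 347 fragments (Oog1, PD14 replicate 2) and 3061 fragments (Oog3, PD15 replicate 3) in a library. For Oog3 the counting coefficient of variation was at most 3.01%, and that between libraries of the same day was 24.5%. For Obox5 these were 3.80% and 11.98%. They cover counting error only, since the libraries carried no molecular identifiers.

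The oogenesins were measured as follows. Oog3 had 38.7, 25.4 and 34.7 FPKM in the PD14 libraries, 34.5, 36.6 and 57.1 at PD15, and 24.9, 32.6 and 33.5 at PD16 (replicates 1, 2 and 3). Its highest value, in PD15 replicate 3, stood apart from the other 8, and the PD14 libraries overlapped those of both later days. Oog1 had 10.8, 7.93 and 11.00 FPKM at PD14, 13.1, 12.3 and 17.5 at PD15, and 11.6, 12.1 and 11.3 at PD16. All PD15 libraries of Oog1 were above all others, and all PD16 libraries above those of PD14.

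Of the homeobox members, Obox5 had 16.8, 13.4 and 17.4 FPKM at PD14, 19.7, 20.2 and 24.5 at PD15, and 21.01, 18.7 and 17.3 at PD16. Its PD15 libraries were all above those of PD14, and PD16 overlapped both days. Obox1 had 15.7, 10.7 and 15.2 FPKM at PD14, 17.2, 16.7 and 24.0 at PD15, and 15.9, 15.3 and 14.4 at PD16. Its PD15 libraries were above all others. Obox2 had 21.2, 11.9 and 17.2 FPKM at PD14, 20.7, 19.5 and 27.7 at PD15, and 18.9, 15.6 and 18.6 at PD16. Its PD15 libraries were above those of PD16 and overlapped those of PD14. In Obox1, Obox2, Obox5 and Oog1, the lowest library was PD14 replicate 2 and the highest PD15 replicate 3.

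**Figure D2:**
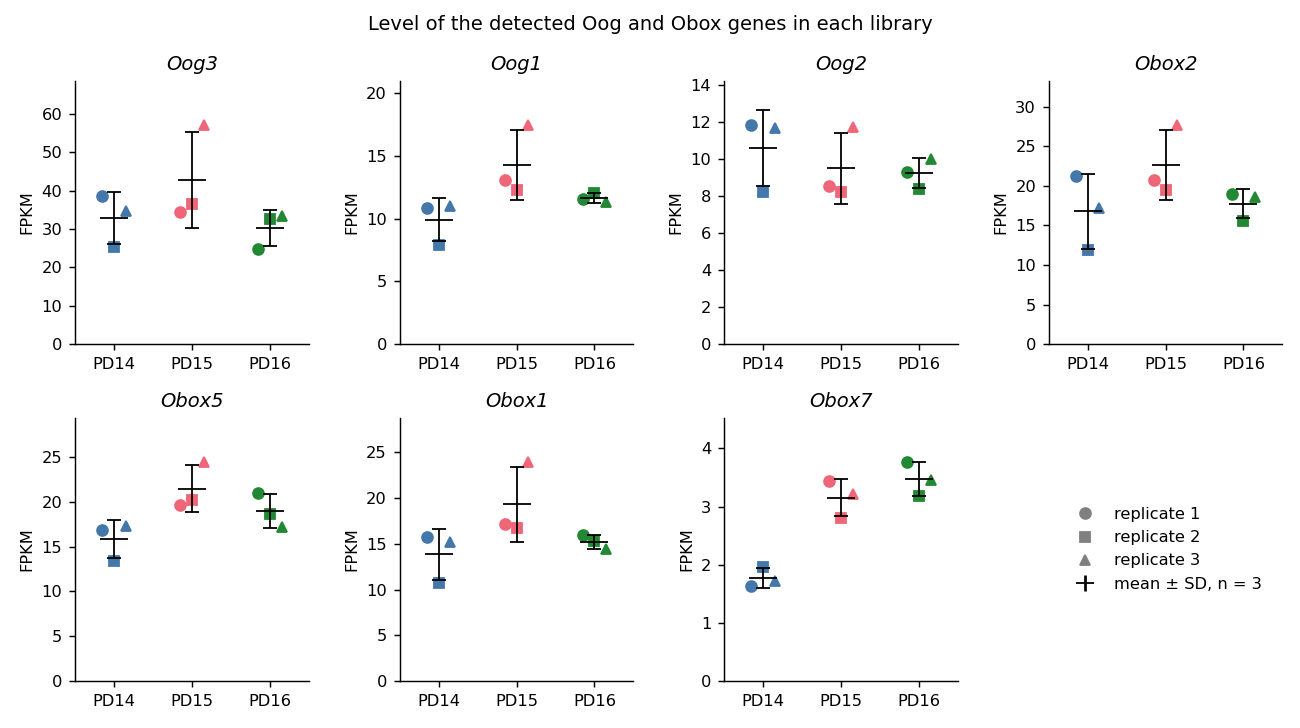
FPKM (vertical axes, from 0) of Oog3, Oog1, Oog2, Obox2, Obox5, Obox1 and Obox7 in each library by day, with marker shapes for replicates and black bars for the mean ± SD (n = 3). PD15 replicate 3 (triangle) is the highest library for Oog3, Oog1, Obox2, Obox5 and Obox1, reaching 57.1 FPKM for Oog3.

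Oog4, Obox3 and Obox6 were barely detected or not detected. Oog4 had 11 fragments in all 9 libraries together, with at most 5 in a library and none in 3 of them. By day this was 2, 7 and 2 fragments (exact Poisson 95% intervals 0.242 to 7.22, 2.81 to 14.4 and 0.242 to 7.22). These intervals overlap and cover counting error only, and 5 of the 7 PD15 fragments were in PD15 replicate 3. No difference between days is read from them. Obox3 had 6 fragments, of which 4 were in PD15 replicate 1. Obox6 had 0 fragments in every library, which allows up to 0.0777 to 0.110 FPKM per library if 3 fragments are taken as the limit. Oog4, Obox3 and Obox6 did not pass the filter, and no change is given for them.

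The first comparison asked how the members differed between PD14 and PD15. The mean FPKM was 9.92 ± 1.73 at PD14 and 14.3 ± 2.79 at PD15 for Oog1, and 15.9 ± 2.15 and 21.5 ± 2.64 for Obox5 (SD, n = 3). All 5 means were higher at PD15, and no member passed the test. With limma on log2(FPKM + 1), the differences of PD15 minus PD14 were 0.48 for Oog1 (SE 0.14, Benjamini-Hochberg adjusted p = 0.159), 0.45 for Obox1 (SE 0.16, adjusted p = 0.230) and 0.43 for Obox2 (SE 0.19, adjusted p = 0.343). They were 0.42 for Obox5 (SE 0.12, limma adjusted p = 0.149) and 0.35 for Oog3 (SE 0.21, adjusted p = 0.474). Thus 0 of 5 members were called, where 0.678% of the 15495 genes tested were called, and 3 (Oog1, Obox1 and Obox5) had an unadjusted p under 0.05, as had 2281 of all genes. The median of the 5 was 0.43, against 0.01 over all genes tested. The libraries did not overlap for Oog1, Obox1 and Obox5, and 10.4% of all genes tested were higher at PD15 without overlap.

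The PD15 differences of all 5 members were smaller without PD14 replicate 2 and PD15 replicate 3, a setting added after the values were seen. The log2 differences of PD15 minus PD14 were then 0.21 for Obox5, 0.20 for Oog1, 0.13 for Obox1, 0.069 for Obox2 and −0.044 for Oog3, and no member was called. When libraries were scaled to a list of 28 oocyte markers, such as Gdf9 and Zp3, the differences from PD14 to PD15 ran from 0.16 for Oog3 to 0.31 for Oog1, and no member was called.

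Between PD14 and PD16 no member passed the test. The log2 differences of PD16 minus PD14 were 0.25 for Obox5 (SE 0.12, limma adjusted p = 0.241) and 0.23 for Oog1 (SE 0.14, adjusted p = 0.370). They were 0.14 for Obox1, 0.11 for Obox2 and −0.11 for Oog3, with SE of 0.16 to 0.21 and limma adjusted p of 0.627 to 0.805. None of the 5 was called, against 4.25% of all genes tested, and none had an unadjusted p under 0.05. Only the Oog1 libraries did not overlap, and 15% of all genes were higher at PD16 without overlap. When libraries were scaled to the oocyte marker list, the differences were 0.41 for Obox5 (limma adjusted p = 0.0573), 0.38 for Oog1 (limma adjusted p = 0.0650), 0.30 for Obox1, 0.27 for Obox2 and 0.058 for Oog3. Without PD14 replicate 2, Obox5 was 0.14, Oog1 0.087, Obox1 −0.020, Obox2 −0.11 and Oog3 −0.28. Oog3 was above 0 without PD14 replicate 1 or PD16 replicate 1, at 0.017 and 0.025.

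Between PD15 and PD16, all 5 members were lower at PD16 in the values as deposited. When libraries were scaled to the oocyte marker list, Obox1, Obox2, Obox5 and Oog1 were higher, at 0.021 to 0.18. That scaling moved the median difference of all genes tested to 0.32, above all 5 members, and called 8246 genes. The turn of sign is thus not particular to the members. As deposited, the log2 differences of PD16 minus PD15 were −0.46 for Oog3 (SE 0.21), −0.32 for Obox2 (SE 0.19), −0.31 for Obox1 (SE 0.16), −0.26 for Oog1 (SE 0.14) and −0.17 for Obox5 (SE 0.12), with limma adjusted p between 0.367 and 0.569. None was called, against 0.729% of all genes tested, and none had an unadjusted p under 0.05. Without PD15 replicate 3 the differences were smaller, at −0.23 for Oog3, −0.18 for Obox2, −0.15 for Obox1, −0.11 for Oog1 and −0.074 for Obox5. Libraries of Obox1, Obox2, Oog1 and Oog3 did not overlap, and 9.73% of all genes were lower at PD16 without overlap.

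Over the 3 days together, limma's F test called none of the 5 members (adjusted p from 0.139 for Obox5 to 0.355 for Oog3), against 3.03% of all genes tested, and 3 of the 5 had an unadjusted p under 0.05, as had 3456 of the 15495 genes tested. An exact permutation test of each member over the 280 groupings of the 9 libraries, one-sided, gave p = 0.00357 for Oog1, the smallest p it allows. It gave p = 0.0286 for Obox5, 0.0321 for Obox1, 0.261 for Obox2 and 0.293 for Oog3 (exact, not adjusted over genes). The share of all genes that reach such exact p-values is not given, so they set no member apart from other genes. A pair of days with 3 libraries each cannot reach an exact p below 0.10.

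**Figure D3:**
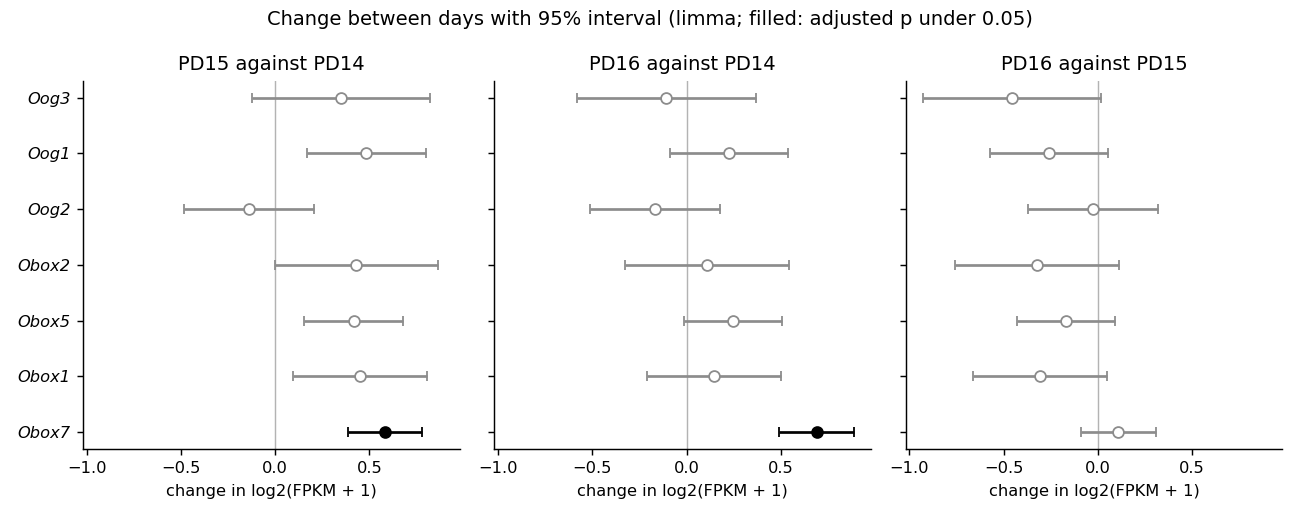
Differences in log2(FPKM + 1) between days (horizontal axes) with 95% intervals from limma, for 7 genes and 3 comparisons. Filled points have an adjusted p under 0.05. Only Obox7 is filled, at 0.58 for PD15 and 0.69 for PD16 against PD14. At PD16 against PD15, the signs of Obox1, Obox2, Obox5, Oog1 and Oog2 turn when libraries are scaled to the oocyte marker list. That scaling moves the median of all genes there to 0.32.

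Oocyte markers were compared between the days in the same way, and few of them were called. A list of 28 oocyte markers with no member in it, such as Gdf9, Zp3 and Nlrp5, had a summed level of 2458 to 3064 FPKM at PD14, 3139 to 3324 at PD15 and 2348 to 2513 at PD16, and all 28 were above 1 FPKM on at least 1 day. The list was higher at PD15 than at the other days in every library. Of the 28, 24 were higher at PD15 than at PD14 and 1, Nlrp5 (a gene of the oocyte's subcortical complex), was called, at a log2 difference of 0.76 (limma adjusted p = 0.0377). Between PD14 and PD16, 22 of the 28 were lower at PD16, with a median log2 difference of −0.19. Bmp15, an oocyte growth factor, was called higher, at 0.39 (limma adjusted p = 0.0331). Of the 5 members, 4 had a higher mean log2 level at PD16 and none was called. Without PD14 replicate 2, Obox1, Obox2 and Oog3 were lower. Whether the members differed from the markers was not tested. All 28 markers were lower at PD16 than at PD15, and Zp2, a zona pellucida gene, and Nlrp5 were called (limma adjusted p = 0.0427 and 0.0439). In a whole ovary, a smaller share of oocytes and less RNA per oocyte cannot be told apart. The part of this shift in the members' values was not tested.

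Relative to that list, the sum of the 5 members was 3.49%, 2.82% and 3.11% of its summed FPKM in the PD14 libraries. It was 3.23%, 3.36% and 4.54% at PD15 and 3.93%, 3.91% and 3.79% at PD16. The PD16 libraries were all above the PD14 ones. Obox5 alone was 0.569%, 0.546% and 0.567% at PD14 and 0.895%, 0.774% and 0.687% at PD16. Obox1 was 0.531%, 0.434% and 0.496% at PD14 and 0.678%, 0.635% and 0.574% at PD16, and Oog1 was 0.366%, 0.322% and 0.359% at PD14 and 0.492%, 0.501% and 0.451% at PD16. PD14 and PD16 did not overlap for these 3 genes and overlapped for Oog3 and Obox2. On this scale, 29.7% of all genes tested were higher at PD16 than at PD14 without overlap. The PD15 libraries of these 3 genes overlapped those of PD16, and for Obox1 also those of PD14. When every library was scaled to the list, the F test called 2 members, Obox5 and Oog1 (limma adjusted p = 0.0368 and 0.0375), and that scaling called 38.1% of all genes tested.

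**Figure D4:**
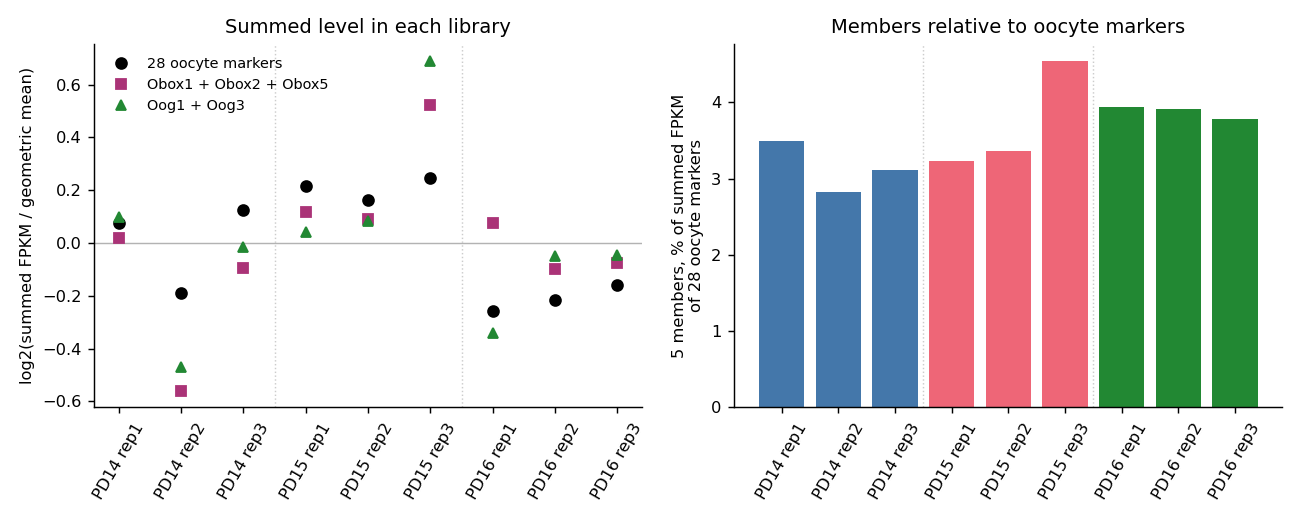
Left, log2 of the summed FPKM of 28 oocyte markers, of Obox1, Obox2 and Obox5, and of Oog1 and Oog3 in each library, relative to its geometric mean. Right, the summed FPKM of the 5 abundant members as a percentage of that of the markers (bars from 0). PD14 replicate 2 is lowest, at 2.82%, and PD15 replicate 3 highest, at 4.54%.

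The libraries held transcripts of several cell types, with summed levels of 2901 to 3758 FPKM for 12 granulosa cell markers and 1196 to 2245 FPKM for 8 theca and interstitial cell markers. Hba-a1, a haemoglobin gene, was lower at PD15 than at PD14 (log2 difference −1.35, limma adjusted p = 0.0381), and 4 of 5 tested blood and endothelial markers were lower. The summed level of that list was 138 to 170 FPKM at PD14, 79.5 to 97.0 at PD15 and 93.2 to 144 at PD16. Of the granulosa markers, Amh was higher and Kitl and Cyp19a1 lower at PD16 than at PD14 (limma adjusted p = 0.0223, 0.0494 and 0.0316). Of the epithelial markers, Krt8, Krt18 and Krt19 were lower at PD16 than at PD14 (limma adjusted p of 0.0121 to 0.0335). Their list summed to 59.1 to 65.8 FPKM at PD14 and 44.6 to 49.2 at PD16. No theca or stroma marker was called in any comparison. The part of these changes in the members' values was not tested.

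Of 37 other genes of multicopy oocyte families, such as the Fbxw, Nlrp4, Nlrp9 and Oas1 clusters, 35 were tested, and 1 of them, Oosp1, is also among the oocyte markers. At PD15, 33 of these had a higher mean log2 level than at PD14 (median difference 0.21), and none was called. Between PD14 and PD16, 14 were higher and 21 lower (median −0.034), and none was called. Between PD15 and PD16, 33 were lower as deposited, with a median of −0.25, and none was called. Among 12 oocyte transcription factor genes, which include Nobox, Figla, Lhx8 and Sohlh1 of the oocyte markers, Taf4b, a TFIID subunit, was called at PD16 against PD14 with a difference of 0.91 (limma adjusted p = 0.0138), while the other 9 of the 10 tested were lower and not called (median of the 10, −0.21). Pou5f1 was called at PD16 against PD15, at −0.45 (limma adjusted p = 0.0434). Of 12 genes in a PRAME list, only Pramef12 was tested, and it was not called. That list leaves out the oogenesins and tested genes that carry copies of their windows, such as Gm13023.

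The other coding genes of the families were Oog2, Obox7 and Obox8. Oog2 lies 28055 bases from Oog3 on the opposite strand and had 11.8, 8.19 and 11.7 FPKM at PD14, 8.53, 8.23 and 11.7 at PD15, and 9.27, 8.38 and 9.98 at PD16. Its days overlapped, and it was not called (log2 differences −0.14 and −0.17 from PD14). Without PD14 replicate 2 these differences were −0.30 and −0.32, and with single libraries left out the first was as small as −0.056. Scaled to the oocyte marker list, Oog2 was called at PD16 against PD15, at 0.30 (limma adjusted p = 0.0454), where it was −0.026 as deposited. That scaling called 8246 of the 15495 genes tested in this comparison, and the median over all of them was 0.32, so the call is not particular to Oog2. Obox8 was at 0 in every library. The 48 rows with pseudogene symbols, all of them Obox rows, held 21 fragments in all libraries together, at most 3 for a single row in a library, and 37 were at 0 everywhere. Among them, Obox4-ps35 is labelled a lincRNA.

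Obox7 is no member and passed the test, and whether its change differed from that of the members was not tested. It had 1.63, 1.96 and 1.72 FPKM at PD14, 3.43, 2.81 and 3.22 at PD15, and 3.77, 3.19 and 3.46 at PD16. All PD15 and PD16 libraries were above those of PD14. On the scale of log2(FPKM + 1) it rose by 0.58 at PD15 (SE 0.09, limma adjusted p = 0.0341) and by 0.69 at PD16 (SE 0.09, adjusted p = 0.00982). At this low level that scale understates the change, and its mean FPKM was 1.78 times that of PD14 at PD15 and 1.96 times at PD16. Its level rested on 56 to 148 fragments in a library. The call at PD16 held in every alternative run, but that at PD15 was lost without any 1 of the 6 libraries of PD14 and PD15 (limma adjusted p of 0.0507 to 0.130).

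Within libraries, the level of Obox7 was 0.0969, 0.146 and 0.0988 times that of Obox5 at PD14. It was 0.174, 0.139 and 0.131 at PD15 and 0.180, 0.171 and 0.200 at PD16, so the PD16 libraries were all above the PD14 ones. The ratio of Oog1 to Oog2 was 0.916, 0.968 and 0.942 at PD14, 1.53, 1.496 and 1.496 at PD15, and 1.25, 1.44 and 1.14 at PD16, without overlap between any pair of days. Of the 100-base windows of the longest coding transcript, 76.7% of Oog1 and 22.4% of Oog2 also occur in other genes, for Oog2 in Gm13084 and Gm7201. Both levels are thus uncertain as single genes. The ratio of Oog3 to Oog1 was 3.16 to 3.57 at PD14, 2.63 to 3.27 at PD15 and 2.16 to 2.95 at PD16. Its PD15 libraries overlapped those of both other days. For Obox2 to Obox1 the ratio was 1.02 to 1.35 over all libraries, with the days overlapping. The ratios were chosen after the values were seen and are given without a test.

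**Figure D5:**
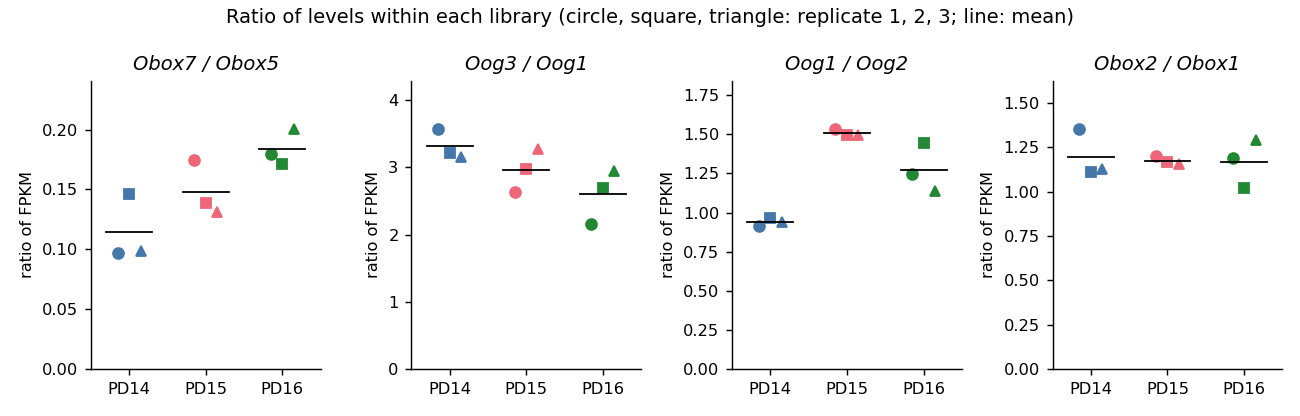
Ratio of FPKM within each library by day (vertical axes from 0), for Obox7 to Obox5, Oog3 to Oog1, Oog1 to Oog2 and Obox2 to Obox1, with a line at the mean. Oog1 to Oog2 is 0.916 to 0.968 at PD14 and 1.496 to 1.53 at PD15, and Obox2 to Obox1 overlaps between days.

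The genes that carry copies of Oog1 windows had differences of either sign at PD15. Gm10436 had 20.9, 15.2 and 17.8 FPKM at PD14, 21.5, 20.5 and 29.1 at PD15, and 21.5, 18.9 and 19.1 at PD16. C87977 had 40.9, 29.4 and 41.0 FPKM at PD14 and 22.3, 31.1 and 43.8 at PD15. Its log2 difference of PD15 minus PD14 was −0.22 (limma adjusted p = 0.681), against 0.37 for Gm10436 (adjusted p = 0.261), 0.49 for Gm2042 (adjusted p = 0.131) and 0.15 for Gm13023 (adjusted p = 0.725), the most abundant of the 4 with a mean of 51.5 FPKM. None of these was called.

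The members were also compared over the 9 libraries. The Pearson correlation of log2(FPKM + 1) was 0.98 between Obox1 and Oog1 (Spearman 0.85), which lie on different chromosomes, and 0.93 between Obox1 and Obox2 (Spearman 0.83). Between Oog3 and Obox5 it was 0.59 (Spearman 0.20). The points share library, depth and day, and the values are a description. Outside the families, the most similar gene tested was Txndc9 for Obox1 (Pearson 0.98), E330034G19Rik for Obox2 (0.98), Atg5 for Obox5 (0.98), Zfp345 for Oog1 (0.96) and Aamdc for Oog3 (0.97). The next were Gm10436 and Nlrp4a for Obox1, E2f5 and Gm10436 for Obox2, Rps3a1 and Cd320 for Obox5, Gm16427 and Pttg1 for Oog1, and Cldn8 and a gene without a symbol for Oog3. For Obox7 it was Taf4b (Pearson 0.98), and its correlation with Obox5 was 0.62 and with Obox1 0.40.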

How the data were processed

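RNA from mouse ovaries was sequenced in 9 libraries, 3 each for PD14, PD15 and PD16. The authors deposited FPKM per gene in a table for each library. The submitters' processing notes name HISAT2 2.0.5 and mm10, and the counter and annotation release are not given in the sources used here. FPKM was used as deposited. Fragments were derived from the FPKM step of a single fragment and GENCODE M21 exon lengths, and all 59 rows of both families came out whole (tolerance 0.001 of a fragment). For Oog1 this needed a length of 1812 bases in place of the 2451 of M21, found by a search for whole fragments, so it is no check there. Rows at 0 in every library are whole at any length.

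Differences were tested with limma 3.58.1 (R 4.3.3, intensity trend) on log2(FPKM + 1), with all 9 libraries in 1 fit, on the 15495 genes whose mean exceeded 1 FPKM on any day, and adjusted over all of them by the Benjamini-Hochberg method (threshold 0.05). The log2(FPKM + 1) scale understates changes of low genes. Single members were also compared by exact permutation. The fit was tested on simulated data. Sequences were aligned with MAFFT 7.526, and other steps used Matplotlib 3.10.9, SciPy 1.17.1, pandas 2.3.3, NumPy 2.4.6 and Python 3.11.15.

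Alternatives were other pseudocounts (0.1 and 0.5), filters (none, and 0.1 FPKM), limma settings and scalings, a block for replicate number, and each library left out. Genes named outside the families were the 3 most correlated with each gene tested and, for each marker list, those called or else the most abundant, of which only some are named here. The members and lists were chosen with earlier results of these data known.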

Additional observations from a re-analysis of the deposited data

How the results depend on the processing

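No member was called in any pairwise comparison under any alternative, and the smallest adjusted p was 0.0573. In the F test, 2 members were called when libraries were scaled to the oocyte marker list and none otherwise. Under that scaling the median difference of all genes was −0.16, 0.15 and 0.32 (PD15 and PD16 against PD14, PD16 against PD15). Oog3 was then 0.058 at PD16 against PD14. At PD16 against PD15, Obox5 was 0.18, Obox2 0.021, Obox1 0.036, Oog1 0.078 and Oog2 0.30 (limma adjusted p = 0.0454). Obox7 was then 0.39 (limma adjusted p = 0.0256). The cause was not tested. With single libraries left out, the difference of PD15 minus PD14 ran from 0.13 to 0.48 for Oog3, from 0.22 to 0.61 for Obox2 and from 0.29 to 0.54 for Obox1, lowest without PD15 replicate 3 for Oog3 and without PD14 replicate 2 for Obox2. The difference of PD16 minus PD14 ran from −0.28 to 0.025 for Oog3, from −0.11 to 0.29 for Obox2 (turning without PD14 replicate 2) and from −0.020 to 0.24 for Obox1, and PD16 minus PD15 from −0.11 to 0.12 for Oog2. Without both PD14 replicate 2 and PD15 replicate 3, chosen after seeing the data, Oog3 was −0.044 at PD15 against PD14, Obox2 −0.11 and Obox1 −0.020 at PD16 against PD14, and Oog2 0.12 at PD16 against PD15. The Obox7 call at PD15 was also lost with no filter, a filter of 0.1 FPKM, the oocyte scaling, only the days compared and both libraries left out (limma adjusted p of 0.0545 to 0.101). Of 285 differences of members computed under the other settings (the pair of libraries left out together not counted), 276 kept their direction and side of the threshold. Many of these could not change direction. The filters, the limma settings, the block and a left-out library of a day not compared leave the difference itself unchanged.

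For same-numbered replicates of different days, the deviations of the genes tested from their day means had correlations of −0.21 to 0.16. The labels say nothing of pairing, and whether same-numbered libraries share more than a number is not known. With a replicate block, 0 members were called, the Obox7 adjusted p at PD15 was 0.0841 (limma), and 24 genes in place of 105 were called at PD15 against PD14, 227 in place of 659 at PD16 against PD14 and 56 in place of 113 at PD16 against PD15. Leaving out single libraries gave 3 to 92 genes at PD15 against PD14, 92 to 660 at PD16 against PD14 and 14 to 125 at PD16 against PD15. With no filter these were 29, 172 and 24, and under the oocyte scaling 239, 557 and 8246.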
